A study of Mus musculus with 16 samples.

Results

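Microglia of the olfactory bulb were examined for 10 genes of phosphatidylserine recognition and engulfment: Mfge8, Gas6 and Pros1, Mertk and Adgrb1, Itgav, Itgb3 and Itgb5, and Elmo1 and Dock1. They were chosen by name from known function, with earlier results of these data known, and make up 10 of the 57010 rows of the count table. The study asked how microglia of young APP-NL-G-F mice differ from those of wild-type animals. Cells were taken from olfactory bulbs of mice aged 2 months with CD11b magnetic beads, and their total RNA was sequenced after depletion of ribosomal RNA. WT animals were C57BL/6J mice with the unmodified App gene. APP-NL-G-F animals (KI in the figures) carried a homozygous knock-in of a humanised App allele bearing 3 familial changes, Swedish (NL), Arctic (G) plus Iberian (F), which is expressed from the mouse App locus in every App-expressing cell. No group received a treatment. There were 4 libraries from each sex of each genotype, 16 in all, with 9052932 to 18117286 counts per library. The p-values below measure the spread between these libraries, since the labels do not say that each came from a separate mouse and the study's reporting form speaks of technical replicates for RNA sequencing. If some libraries are repeats of 1 animal, the SDs hold technical spread and the number of animals is smaller than the number of libraries.

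Phosphatidylserine is a lipid that living cells keep on the inner side of the plasma membrane and that dying or stressed cells and neurites expose on the outside. Soluble bridging proteins bind it and link it to receptors on phagocytes: MFG-E8 binds the integrins αvβ3 and αvβ5, whereas GAS6 and protein S bind the receptor kinases of the TAM family, of which MERTK is one. BAI1, the product of Adgrb1, binds the lipid directly. Several of these receptors pass the signal to ELMO1 and DOCK1, which together load Rac with GTP so that actin can close around the target. In the brain, microglia use these routes to remove dying cells, synapses and axons.

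The coding sequences of Mfge8, Adgrb1, Itgb3 and Itgb5 carry short sites through which these proteins meet their partners. They are shown as the contact sites of a ligand, a receptor and the 2 β subunits among the members. Each line is the coding strand, 5′ to 3′, of the Ensembl canonical transcript in gencode vM39 on GRCm39. Capitals mark the codons of the Arg-Gly-Asp (RGD) site in Mfge8 and Adgrb1, the tripeptide that αv integrins recognise, and of the NPxY site in the cytoplasmic tails of Itgb3 and Itgb5, which binds talin.
Mfge8: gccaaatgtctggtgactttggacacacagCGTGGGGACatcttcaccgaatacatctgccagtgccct
Adgrb1: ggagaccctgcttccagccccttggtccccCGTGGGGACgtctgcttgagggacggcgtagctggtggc
Itgb3: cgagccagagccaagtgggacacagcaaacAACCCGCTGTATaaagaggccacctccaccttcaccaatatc
Itgb5: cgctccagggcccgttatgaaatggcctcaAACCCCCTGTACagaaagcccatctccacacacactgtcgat
The RGD codons of Mfge8 are codons 87 to 89, in exon 3 of 9, at chr7:78795056-78795064 on the minus strand. Those of Adgrb1 are codons 231 to 233, in exon 2 of 31, at chr15:74401696-74401704 on the plus strand. The bases in capitals are the same in both genes, and the reading frame of each gene holds 1 such site. The marked site of Itgb3 lies in its last exon, exon 15, at chr11:104557912-104557923, and that of Itgb5 in its last exon, also exon 15, at chr16:33769033-33769044, both on the plus strand. The reading frame of Itgb3 holds 2 matches to NPxY, of which the one in the tail is shown, and that of Itgb5 holds 1. The genes themselves span chr7:78783515-78798825 (Mfge8), chr8:13515371-13544824 (Gas6), chr16:62674275-62749710 (Pros1), chr2:128540729-128645080 (Mertk), chr15:74388044-74461314 (Adgrb1), chr2:83554403-83637260 (Itgav), chr11:104498826-104561302 (Itgb3), chr16:33649988-33771137 (Itgb5), chr13:20274428-20792523 (Elmo1) and chr7:134272372-134775375 (Dock1). All 10 are protein-coding, and Mfge8 and Gas6 lie on the minus strand.

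The cells carried the microglial label. All 12 markers of microglia fixed for this check were tested, none was at 0, and their summed level was 20410 to 24160 CPM (counts scaled to the effective library size that edgeR's TMM method gives), with Csf1r highest at 5657 CPM. The mean over these 12 markers did not differ between the genotypes beyond the spread (log2 difference 0.01, exact permutation p = 0.858). Markers of other cells were present at lower levels, with summed medians of 744 CPM for astrocytes, 550 for neurons, 325 for oligodendrocytes and 83.7 for endothelial cells. Macrophages of the brain's borders also carry CD11b, and their 8 markers had a summed median of 586 CPM, with Mrc1 highest at 344 CPM and none at 0. Their mean did not differ between the genotypes beyond the spread (log2 difference 0.10, exact permutation p = 0.434). Monocyte markers had a summed median of 25.2 CPM. In such bulk libraries, fewer cells of a type and less RNA per cell cannot be told apart. Over both sexes, the means of 2 of these lists differed between the genotypes. The mean over the 12 neuron markers was higher in APP-NL-G-F libraries by 0.25 on the log2 scale (exact permutation p = 0.00571), and 10 of the 12 had a fold change above 0, the exceptions being Stmn2 (-0.13) and Slc17a7 (-0.13). The mean over the 8 oligodendrocyte markers was higher by 0.40 (exact permutation p = 0.0151). Of the latter, 3 had an edgeR FDR below 0.1, all higher, beside 14.8% of all genes tested, the most abundant was Mbp at 113 CPM, and the summed means were 323 and 254 CPM in WT females and males and 353 and 365 CPM in those of APP-NL-G-F. Mog was the 1 called (log2 fold change 0.77, edgeR FDR 0.0335), also in all 16 fits without single libraries. Without WT female 2, and likewise without APP-NL-G-F male 3, 5 of the 8 oligodendrocyte markers had an FDR below 0.1. The share of all genes under this FDR is not given for these fits. Genes called were 1253 without WT female 2 and 2187 without APP-NL-G-F male 3, in place of 1574. Sex labels were checked against Xist, which was at 547 to 861 CPM in females and at most 0.448 CPM in males.

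APP-NL-G-F male 3 and WT female 2 were looked at singly. By the rule for extreme libraries given below, APP-NL-G-F male 3 was flagged for Mertk and Adgrb1, and WT female 2 for no member. APP-NL-G-F male 3 had the highest Mertk and the lowest Adgrb1 of its group, and without it 603 genes in place of 46 were called between the genotypes in males. WT female 2, the library with the fewest counts, had the highest Mfge8 of all 16 and the highest summed markers of astrocytes, oligodendrocytes, olfactory ensheathing cells and endothelial cells. Values without one or the other were added after the data were seen.

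The genes were not equally abundant. Levels per length were compared as TPM, counts divided by the length of all annotated exons and scaled to the same sum in every library, among 17317 tested genes with a known length. Itgb5, the β subunit of αvβ5, was the most abundant of the 10 at 683 ± 66.7 TPM (SD, n = 16) and stood at rank 89. Mertk followed at 352 ± 23.8 TPM, rank 173. The bridging proteins of MERTK were next, Pros1 at 118 ± 9.21 TPM and Gas6 at 93.0 ± 5.39 TPM. Elmo1 had 85.4 ± 7.0 TPM, Itgav 70.6 ± 6.32 TPM, Adgrb1 59.0 ± 11.5 TPM, Dock1 37.5 ± 1.72 TPM and Itgb3 25.3 ± 2.06 TPM. Mfge8, whose protein bridges the lipid to αv integrins, was the least abundant at 14.3 ± 2.19 TPM, rank 5054. This order held in all 16 libraries for 7 of the 9 neighbouring pairs. Gas6 exceeded Elmo1 in 14 of 16 libraries, and Itgav exceeded Adgrb1 in 14 of 16. With the length of the canonical transcript, an alternative added after the data were seen, Itgb5 (1082 TPM) and Mertk (271 TPM) remained first and second, Elmo1 (154 TPM) passed Gas6 (133 TPM), and Mfge8 (25.0 TPM) passed Itgb3 (21.6 TPM).

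**Figure D1:**
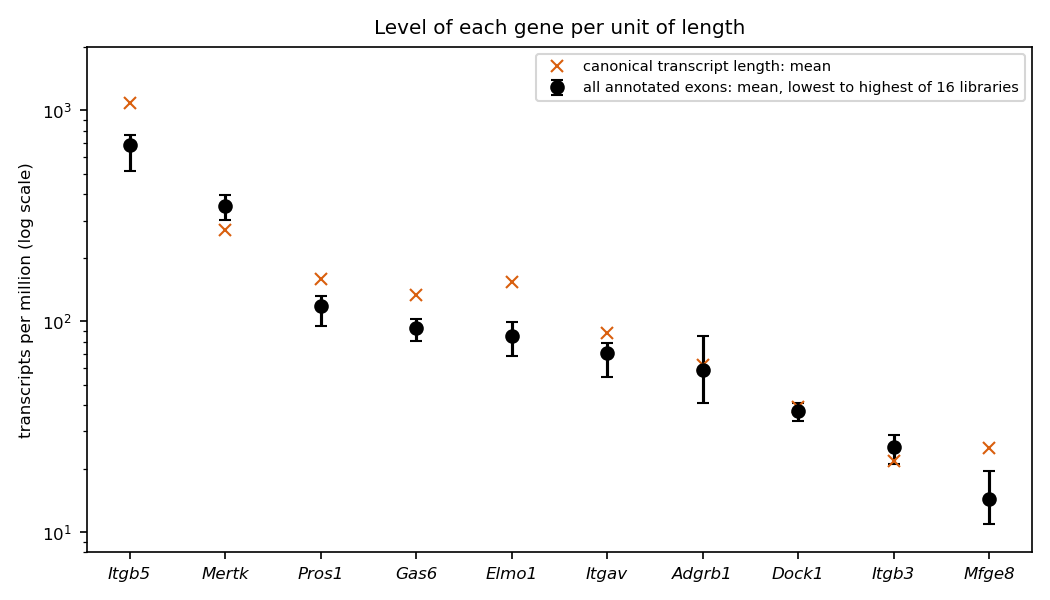
Level of each gene in TPM on a log axis; circles give the mean over 16 libraries with all annotated exons as the length, bars run from the lowest to the highest library, and crosses give the mean with the canonical transcript length. Itgb5 and Mertk lie above the other 8 genes with both lengths, and the order of Mfge8 and Itgb3 turns with the length used.

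With all annotated exons as the length, the β5 subunit exceeded the β3 subunit 27.0-fold ± 2.11 (SD, n = 16), and the ratio was between 21.4 and 30.1 in every library. Mertk exceeded Axl, another TAM receptor, 11.9-fold ± 2.45. Pros1 exceeded Gas6 1.27-fold ± 0.0981. Dock2, the DOCK protein of blood cells, exceeded Dock1 3.65-fold ± 0.184. The sizes depended on the length used. With canonical transcripts Itgb5 exceeded Itgb3 50.1-fold (39.6 to 55.8), Mertk exceeded Axl 6.22-fold, Pros1 exceeded Gas6 1.19-fold and Dock2 exceeded Dock1 5.02-fold, so the direction of the 4 was the same.

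No member was called between the genotypes at the threshold used, a Benjamini-Hochberg FDR below 0.1 with an absolute log2 fold change above 0.5. All 10 passed the filter on low counts. With sex as an additive term, edgeR's quasi-likelihood test called 0 of the 10, against 8.64% of the 18227 genes tested (1574 genes). An unadjusted p below 0.05 was found for 0 of the 10, beside 4397 of the 18227 genes. DESeq2 and limma voom also called 0 of the 10. The median log2 fold change of the 10 was -0.05, beside -0.00 over all genes tested, and 4 of 10 were above 0. Every 95% interval lay between -0.24 and 0.25, inside the fold threshold.

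**Figure D2:**
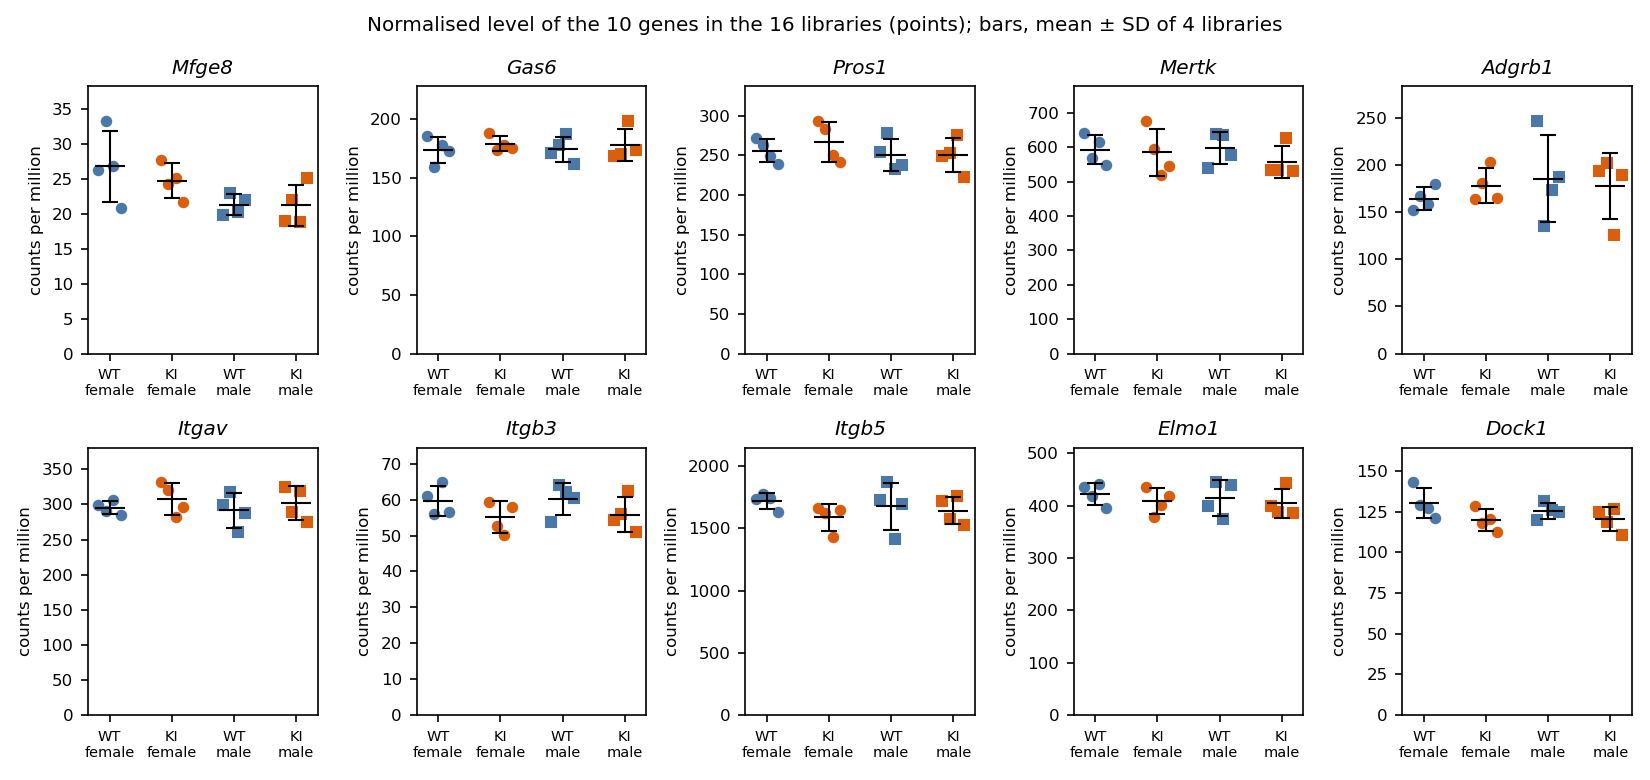
Level in CPM of each gene in each library, by genotype and sex; circles are females, squares are males, blue is WT, orange is KI (APP-NL-G-F), and bars give the mean ± SD of 4 libraries. The genotypes overlap in every panel.

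Of the 3 bridging proteins among the members, Mfge8 had the lowest level per length. In WT females it was 26.2, 33.3, 26.7 and 20.8 CPM, in WT males 19.8, 23.0, 20.3 and 22 CPM, in APP-NL-G-F females 27.7, 24.3, 25.1 and 21.7 CPM, and in APP-NL-G-F males 18.9, 21.9, 18.8 and 25.1 CPM. The genotypes overlapped, and WT female 2 lay above every APP-NL-G-F library. The log2 fold change was -0.06 (SE 0.0868, 95% interval -0.24 to 0.12, edgeR FDR 0.746), and 0.01 without WT female 2. Within females it was -0.11, and 0.02 without WT female 2. Gas6, a vitamin K-dependent ligand of the TAM receptors, had 159, 175 and 187 CPM as the lowest, median and highest WT library and 169, 175 and 199 CPM in APP-NL-G-F. Its log2 fold change was 0.04 (95% interval -0.06 to 0.13). With library totals alone as the scaling it was 0.09, with an edgeR FDR of 0.158. Pros1, which encodes protein S, had 234, 252 and 278 CPM for WT against 223, 252 and 294 CPM for APP-NL-G-F, with a log2 fold change of 0.03 (95% interval -0.09 to 0.14). The medians of the 2 genotypes were nearly equal for Gas6 and Pros1.

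Mertk, a TAM receptor typical of microglia, had 541, 596 and 641 CPM as the lowest, median and highest WT library. In APP-NL-G-F females it was at 677, 596, 521 and 546 CPM and in males at 533, 534, 626 and 532 CPM. APP-NL-G-F male 3 stood above the other males of its genotype, which lay close together, and the genotypes overlapped. The log2 fold change was -0.06 (SE 0.0594, 95% interval -0.19 to 0.06, edgeR FDR 0.587), and -0.08 without APP-NL-G-F male 3 (edgeR FDR 0.434). Adgrb1 was at 153, 167, 158 and 180 CPM in WT females and at 247, 136, 173 and 187 CPM in WT males. In APP-NL-G-F libraries it was at 164, 181, 204 and 165 CPM in females and at 194, 203, 126 and 190 CPM in males. The highest and the lowest value were both in males, and the genotypes overlapped. Adgrb1 was the most variable member together with Mfge8, with an SD of 16.3% of the mean over the 16 libraries, against 5.70% to 8.49% for the other 8. Its log2 fold change was 0.03 (SE 0.107, 95% interval -0.20 to 0.25, edgeR FDR 0.919), and 0.11 without APP-NL-G-F male 3 (edgeR FDR 0.504). Within males its value of -0.06 became 0.11 without WT male 1, the library with the highest level, and 0.08 without APP-NL-G-F male 3, the one with the lowest.

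Of the 3 integrin subunits among the members, Itgb3 had the most negative fold change. Its level was 53.8, 60.8 and 64.8 CPM as the lowest, median and highest WT library and 50.1, 55.1 and 62.3 CPM in APP-NL-G-F, and 1 of 8 APP-NL-G-F libraries exceeded the WT median. The log2 fold change was -0.11 (SE 0.0538, 95% interval -0.22 to 0.00, edgeR FDR 0.217, exact permutation p = 0.0649). Without APP-NL-G-F male 3 it was -0.13 with an edgeR FDR of 0.0997 (exact permutation p = 0.0241), still short of the fold threshold. This FDR was the lowest of 27 alternatives, and the highest was 0.492. With library totals alone the log2 difference of Itgb3 was -0.06 (exact permutation p = 0.224). Itgb5 was at 1732, 1778, 1740 and 1629 CPM in WT females, 1729, 1869, 1418 and 1698 CPM in WT males, 1662, 1624, 1428 and 1644 CPM in APP-NL-G-F females, and 1717, 1571, 1757 and 1526 CPM in APP-NL-G-F males. The lowest library of each genotype, WT male 3 and APP-NL-G-F female 3, lay below the rest, and the genotypes overlapped. Its log2 fold change was -0.07 (SE 0.0549, 95% interval -0.19 to 0.04, edgeR FDR 0.467). Itgav, the α subunit that pairs with both, had 261, 295 and 318 CPM for WT against 276, 308 and 332 CPM for APP-NL-G-F, with a log2 fold change of 0.06 (95% interval -0.05 to 0.16, edgeR FDR 0.536).

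Elmo1, the adaptor, had 374, 428 and 445 CPM as the lowest, median and highest WT library and 378, 400 and 444 CPM in APP-NL-G-F. Its log2 fold change of -0.04 (95% interval -0.14 to 0.06) became 0.01 with library totals alone. Dock1, the exchange factor, had 120, 127 and 143 CPM for WT against 111, 120 and 128 CPM for APP-NL-G-F, and 2 of 8 APP-NL-G-F libraries exceeded the WT median. Its log2 fold change was -0.09 (SE 0.0438, 95% interval -0.18 to 0.00, edgeR FDR 0.216). Dock1 was the one member with an exact permutation p below 0.05 for genotype (p = 0.0429), and this p was 0.0625 without WT female 2. With library totals alone its exact permutation p was 0.132, whereas Gas6 (p = 0.0102) and Itgav (p = 0.0355) were below 0.05 and higher in APP-NL-G-F. Scaling by library totals moved the median of all genes by 0.05 on the log2 scale. Of other rows that overlap a member, 6 were tested and none was called. Each held 0.367% to 2.91% of the counts of its member.

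Within each sex no member was called either. In females 0 of the 10 were called, against 7.15% of all genes tested (1304 genes), and in males 0 of the 10, against 0.252% (46 genes). In the interaction of genotype with sex 0 of the 10 were called, against 0.0274% (5 genes). No member had an unadjusted edgeR p below 0.05 in these 3 comparisons, and DESeq2 and limma voom called none. Of the 18227 genes tested, 3792 had such a p in females, 2126 in males and 1083 in the interaction. Log2 fold changes of members ran from -0.12 to 0.12 in females and from -0.11 to 0.05 in males. The widest interval was that of Adgrb1, from -0.20 to 0.44 in females and from -0.38 to 0.26 in males.

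Markers of other cells differed within females, where 7.15% of all genes tested were called, and 736 of 18158 genes without WT female 2. Of the 8 endothelial markers, 5 were called lower in APP-NL-G-F females (Cldn5, Flt1, Slco1a4, Ly6c1 and Tek), with a median log2 fold change of -1.02, and without WT female 2 it was 0 of 8 with a median of -0.71. Without single libraries each of the 5 was called in 10 to 14 of 16 fits, and the highest FDR of Ly6c1 (0.181) was without WT female 1. In males none of the 8 was called and the median was 0.82. An unadjusted edgeR p below 0.05 was found there for 6, beside 2126 of the 18227 genes tested. Of the 10 astrocyte markers, 3 were called lower in females (Aqp4, Gfap and Aldoc, median of the 10 -0.58), and 1 without WT female 2. Gfap was called in all 16 fits without single libraries, Aldoc in 12 and Aqp4 in 3. In the interaction of genotype with sex, no endothelial or astrocyte marker had an FDR below 0.1. An unadjusted edgeR p below 0.05 was found there for 6 of 8 endothelial and 5 of 10 astrocyte markers, beside 1083 of the 18227 genes tested. The interaction medians were -1.84 for endothelial and -0.62 for astrocyte markers. Rgs5 was the 1 of 6 tested markers of pericytes and fibroblasts called lower in females (log2 fold change -1.09, edgeR FDR 0.0291). It was called in 14 of 16 fits that left out 1 library, with fold changes of -1.29 to -0.82, and not without WT female 1, the library with the highest sum of these markers (FDR 0.156), or WT female 2. Of the 12 neuron markers, Syt1 and Gad1 were called higher in females. Leaving out each library in turn, Syt1 was called in all 16 fits and Gad1 in 6 of 16, with an FDR of up to 0.273 without WT female 1. Without APP-NL-G-F male 3, 2 neuron, 3 oligodendrocyte and 1 endothelial marker were called higher in males, where none was called with it. All genes called in males rose as well, from 46 with that library to 603 of 18114 genes tested without it. The part of these cells in the values of the members was not tested.

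**Figure D3:**
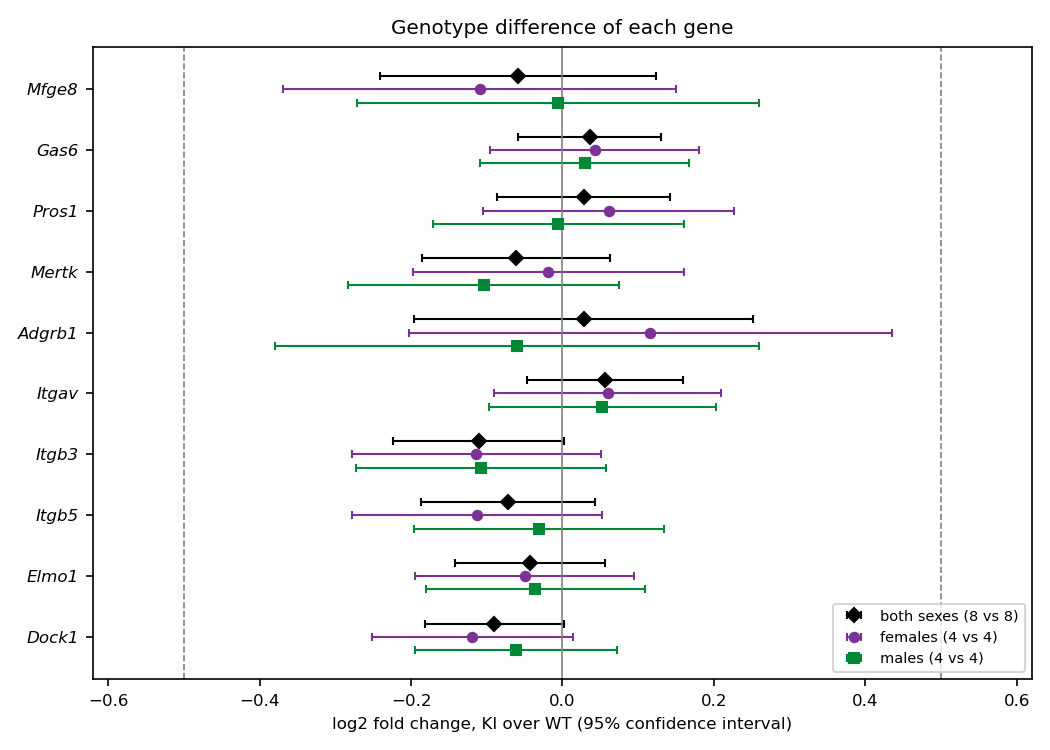
Log2 fold change of KI (APP-NL-G-F) over WT with its 95% confidence interval for each gene, over both sexes (diamonds), in females (circles) and in males (squares); dashed lines mark the fold threshold of 0.5 in either direction. Every interval includes 0 and none reaches the threshold.

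All 45 ratios between 2 members were also computed, after the values were seen, since library scaling cancels in a ratio. The one with the lowest p was Itgav over Itgb5, the α and β subunits of αvβ5. The library counts of Itgav per 1000 counts of Itgb5 were 173, 163, 176 and 175 in WT females and 173, 170, 184 and 169 in WT males. They were 199, 198, 198 and 180 in APP-NL-G-F females and 189, 184, 182 and 181 in APP-NL-G-F males. The 4 females of each genotype did not overlap, while 1 WT male lay within the range of the APP-NL-G-F males. Overlap within females was not counted for the other ratios. Over both sexes the genotypes overlapped in this ratio as in the rest, with 0 of the 45 free of overlap. The ratio was higher in APP-NL-G-F by 0.13 on the log2 scale (exact permutation p = 0.00122, 0.0551 after adjustment over the 45 ratios), 0.17 in females and 0.08 in males, a difference between the sexes that was not tested. Without any 1 library the difference stayed between 0.11 and 0.14, with an exact permutation p of at most 0.00327. Of the 45 ratios, 10 had an exact permutation p below 0.05 and 1 an adjusted p below 0.1. The 10 included 4 others of Itgav over another member, all higher in APP-NL-G-F: over Itgb3 by 0.17 (exact permutation p = 0.00939, adjusted 0.106; 0.17 in females and 0.16 in males), over Dock1 by 0.15, over Mertk by 0.12 and over Elmo1 by 0.10. The rest of the 10 did not hold Itgav. Log2 differences were -0.15 for Itgb3 over Gas6 (exact permutation p = 0.00694), -0.14 for Itgb3 over Pros1 and -0.10 for Mertk over Gas6. They were 0.13 for Gas6 over Dock1 and 0.12 for Pros1 over Dock1. As these ratios were picked by their p, the values are a description.

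**Figure D4:**
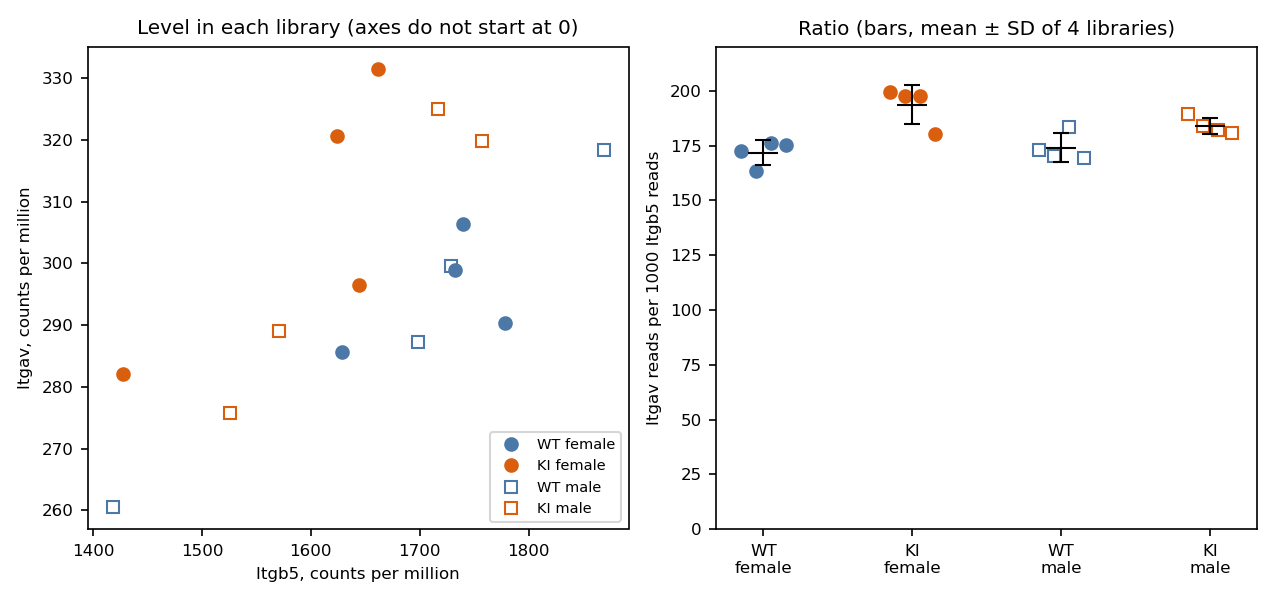
Left, Itgav against Itgb5 in CPM for each library, on axes that do not start at 0; right, Itgav reads per 1000 Itgb5 reads, with the mean ± SD of 4 libraries. Blue is WT and orange is KI (APP-NL-G-F), filled circles are females and open squares are males; the ratio runs from 163 to 184 in WT and from 180 to 199 in KI libraries.

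Between the sexes, 0 of the 10 were called by edgeR, DESeq2 or limma voom, against 0.0604% of genes tested (11 genes). Of the 10, 1 (Mfge8) had an unadjusted edgeR p below 0.05, beside 1195 of the 18227 genes tested. Mfge8 was higher in females by 0.27 on the log2 scale (SE 0.0868, 95% interval 0.09 to 0.45, edgeR FDR 0.702, exact permutation p = 0.0114), and 7 of 8 female libraries exceeded the male median. Without WT female 2 the difference was 0.21 (exact permutation p = 0.0233). Markers of other cells moved with sex as well. The mean over the 8 endothelial markers was higher in females by 0.63 on the log2 scale (exact permutation p = 0.0376), and by 0.52 without WT female 2 (exact permutation p = 0.0551), with summed means of 136 and 67.2 CPM in WT females and males and 86.7 and 86.8 CPM in APP-NL-G-F females and males. The most abundant of them was Pecam1 at 32.5 CPM, and none was at 0. The mean over the markers of pericytes and fibroblasts was higher in females by 0.58 (exact permutation p = 0.00653) and that of olfactory ensheathing cells by 0.36 (exact permutation p = 0.0331). Without WT female 2 these were 0.54 and 0.29 (exact permutation p = 0.00898 and 0.0722). Summed markers of pericytes and fibroblasts were at 73.0 and 29.1 CPM in WT females and males and at 43.3 and 40.2 CPM in APP-NL-G-F females and males. Those of olfactory ensheathing cells were at 64.7 and 39.2 CPM in WT females and males and at 45.8 and 44.3 CPM in APP-NL-G-F females and males. The part of these cells in the Mfge8 difference was not tested.

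The members also differed in how they varied between libraries of 1 group. Log2 CPM values were centred on the mean of each of the 4 groups, and correlations over the 16 libraries are given with permutations within group. Mfge8 followed the markers of oligodendrocytes (r = 0.83), endothelial cells (r = 0.71) and astrocytes (r = 0.67), and less those of microglia (r = 0.11). Without WT female 2 these were 0.77, 0.57, 0.52 and 0.11. Of 8726 genes with a mean of at least 10 CPM, those most like Mfge8 were Mobp (r = 0.86), Mbp (r = 0.85) and Crcp (r = 0.84), of which the first pair encode myelin proteins. Without WT female 2 these r were 0.78, 0.77 and 0.76. With library totals alone the r of Mfge8 with oligodendrocyte markers was 0.79. The r values share the libraries and their depth, and are a description.

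Adgrb1 moved against the microglial markers (r = -0.62) and with those of neurons (r = 0.60) and oligodendrocyte precursors (r = 0.55). Without APP-NL-G-F male 3 these were -0.51, 0.38 and 0.43. Its most similar genes were Sptan1 (r = 0.97), Sptb (r = 0.96) and Epha10 (r = 0.96), the first pair encoding spectrins of the membrane skeleton, with r of 0.94 to 0.95 without that library. WT male 2 and APP-NL-G-F male 3 had the lowest Adgrb1 and also the lowest summed neuron markers of their genotypes, at 406 and 505 CPM. By the mean log2 CPM of these markers, which r uses, APP-NL-G-F male 3 was again the lowest of its genotype (4.13). WT male 2 (4.09) was then the lowest WT male, but WT female 2 (4.01) and WT female 1 (4.06) were lower. With library totals alone the r of Adgrb1 was 0.71 with neuron and -0.38 with microglial markers. The other 8 members all moved with the microglial markers, from r = 0.41 for Gas6 to r = 0.89 for Pros1. With the markers of border macrophages the r of the 10 members ran from -0.01 for Mfge8 to 0.47 for Pros1. Without APP-NL-G-F male 3 the r of Gas6 with the microglial markers was 0.22. With library totals alone the r of Gas6 with the microglial markers was -0.08 and those of the other 7 were 0.44 to 0.85. Tmf1 (r = 0.97) and Clec5a (r = 0.96) were among the 3 genes most like Pros1. The 3 most like Itgb5 were Arf1, Prex1 and Taldo1 (r of 0.94 to 0.98), and those most like Itgav were Mcrip1, Zfp652 and Cbl (0.92 to 0.94). For Mertk they were Smap2, Gbe1 and Ankrd17 (0.89 to 0.92), for Itgb3 Tmem141, Rbm26 and Lmo2 (0.90 to 0.91), and for Gas6 Lmo4, Zfp91 and Parn (0.85 to 0.86). For Elmo1 they were Cep68, Pald1 and Tor4a (0.91 to 0.93), and for Dock1 Sgce, Mef2c and Pum3 (0.92 to 0.94).

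**Figure D5:**
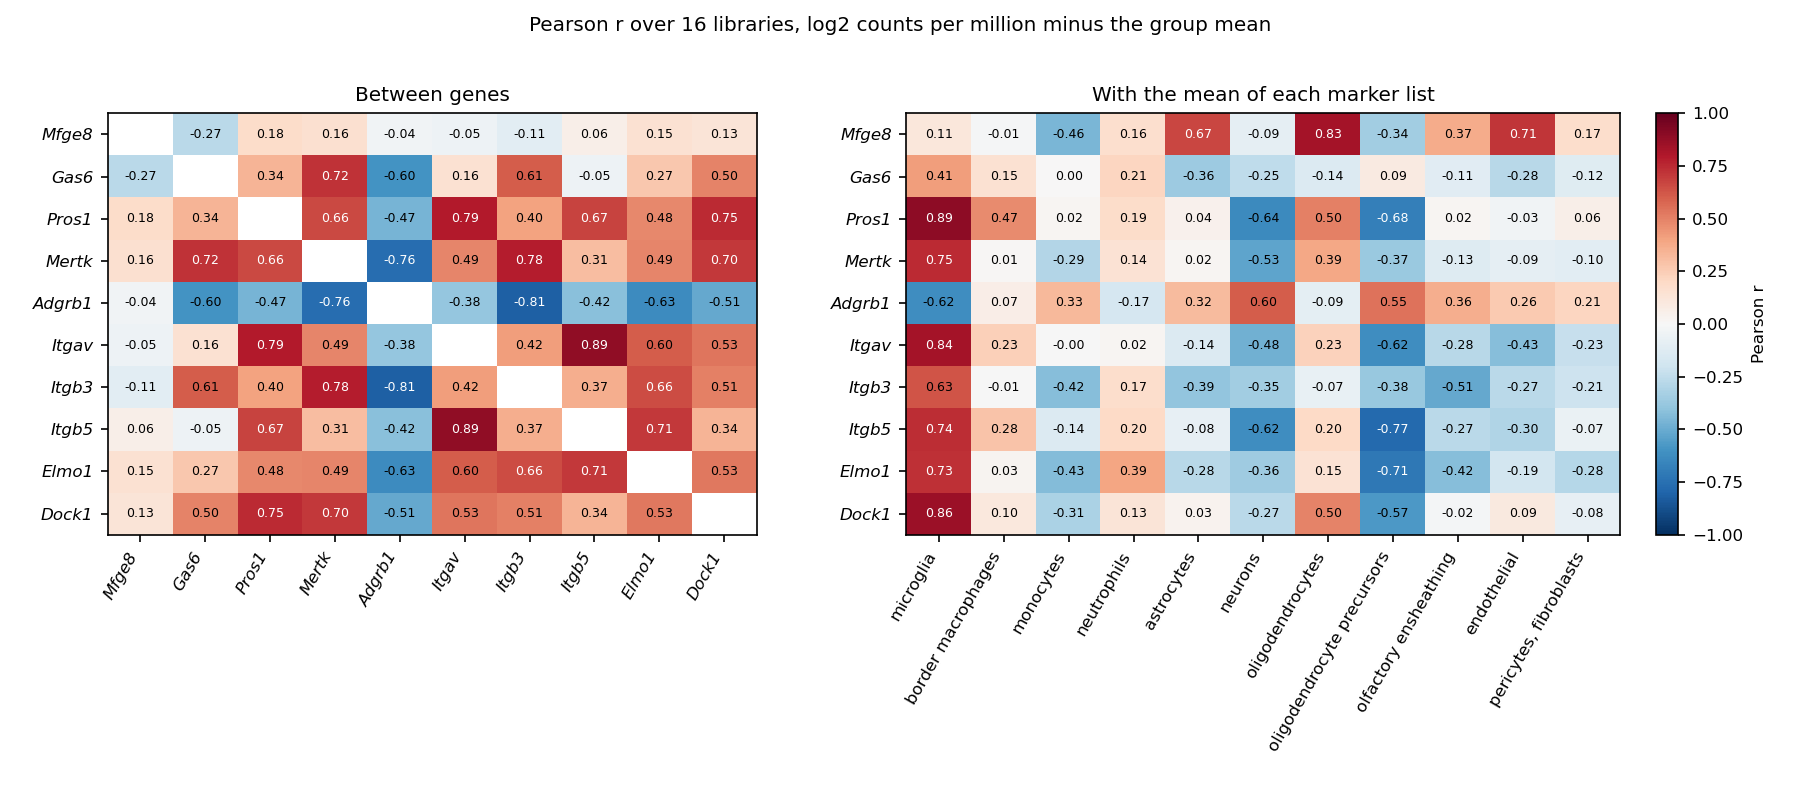
Pearson r over 16 libraries of log2 CPM minus the group mean, between the 10 genes (left) and between each gene and the mean of each list of cell type markers (right). Mfge8 lies between -0.27 and 0.18 with the other 9 genes and is positive with oligodendrocyte, endothelial and astrocyte markers, while Adgrb1 is negative with the other 9 and with microglial markers.

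Of the 45 pairs of members, 12 had a permutation p below 0.1 after adjustment over the pairs. Many genes were as strongly correlated with a member: 0.63% (Mfge8) to 19.1% (Pros1) of the 8726 genes had an r of at least 0.7 in size. Of the 12 pairs, 3 had an r that fewer than 5% of these genes reached in size with either member, Itgav with Itgb5, Itgb3 with Adgrb1 and Itgb3 with Mertk. For Mertk with Adgrb1 it was reached by 4.39% with Mertk and 7.55% with Adgrb1, and for Mertk with Gas6 by 8.03% with Mertk. At the other end stood Mertk with Pros1, at 24.6% with Pros1. The strongest was Itgav with Itgb5 (r = 0.89, rho = 0.84, permutation p = 0.00033 and rho p = 0.00283, adjusted p = 0.00885 for r), and r was 0.85 without the 2 libraries farthest from the median of Itgav. Itgav stood at place 29 among the 8726 genes for Itgb5, and 9.33% of these had an r of at least 0.7 in size with Itgb5. Adgrb1 ran against Itgb3 (r = -0.81, rho = -0.82, permutation p = 0.00052 and rho p = 0.00112, adjusted p = 0.00885) and Mertk (r = -0.76, rho = -0.75, permutation p = 0.00059 and rho p = 0.00219, adjusted p = 0.00885). Without the 2 farthest libraries these were -0.85 and -0.85. Itgb3 moved with Mertk (r = 0.78, rho = 0.81, permutation p = 0.00281 and rho p = 0.00229, adjusted p = 0.0263), and r was 0.75 without the 2 farthest libraries. Mertk with its ligand gene Gas6 gave r = 0.72 and rho = 0.54 (permutation p = 0.00443 and 0.0394, adjusted p = 0.0285 for r), and r was 0.66 without the 2 farthest libraries. Mfge8 was in none of the 12 pairs. The count depended on the scaling and on single libraries. With library totals alone 2 pairs passed. The r of Itgav with Itgb5 was then 0.89 and that of Mertk with Adgrb1 -0.77, while that of Itgb3 with Adgrb1 was -0.59. With the same scaling the r of Itgb3 with Mertk was 0.66 and that of Mertk with Gas6 was 0.43. Without APP-NL-G-F male 3 the r of Itgb3 and Mertk with Adgrb1 were -0.75 and -0.69, that of Itgb3 with Mertk was 0.73 and that of Mertk with Gas6 was 0.63. There were then 6 pairs, without WT female 4 there were 7, and without WT male 3 there were 22.

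Other genes of the pathway were grouped in 5 lists of 87 genes, of which 80 were tested. Over both sexes 2 of the 80 were called, beside 8.64% of all genes tested, and 7 had an FDR below 0.1, beside 14.8%. Of the bridging proteins and opsonins, 11 of 13 were tested and 0 had an FDR below 0.1 over both sexes. An unadjusted edgeR p below 0.05 was found for 2, beside 4397 of the 18227 genes tested. This list held the most abundant gene of the pathway, C1qa at 3186 TPM, a subunit of complement C1q. Within females Vtn, which encodes the αv integrin ligand vitronectin, was called lower (means of 26.4 CPM for WT females and 15.9 CPM for APP-NL-G-F females, log2 fold change -0.73, edgeR FDR 0.0508), and it was called in 10 of 16 fits that left out 1 library, with an FDR of 0.167 without WT female 2. Its means in males were 15.9 CPM for WT and 16.1 CPM for APP-NL-G-F. Markers of endothelial cells and of pericytes and fibroblasts had median log2 fold changes of -1.02 and -0.53 in the same comparison, and their part in the Vtn difference was not tested. Of the other engulfment receptors, 18 of 20 were tested and 1 was called. The most abundant was Tyrobp (1338 TPM), an adaptor of several receptors. Adgrb3, a relative of Adgrb1, averaged 19.7 ± 8.24 CPM across WT libraries and 31.4 ± 9.45 CPM across those of APP-NL-G-F (SD, n = 8 per genotype), and its log2 fold change was 0.70 (SE 0.222, edgeR FDR 0.0536). It was also called higher within females (log2 fold change 0.93, edgeR FDR 0.0962). Leaving out each library in turn kept its call over both sexes in 9 of 16 fits, with an FDR of up to 0.130, and that in females in 5 of 16. Tyro3, the third TAM receptor, was higher by 0.42 (SE 0.143, edgeR FDR 0.0753), below the fold threshold. Of 26 genes of the ELMO, DOCK and Rac group, all tested, the most abundant was Nckap1l (329 TPM), of the WAVE complex. Dock3 was called, with means of 53.7 ± 16.3 CPM for WT and 76.8 ± 17.2 CPM for APP-NL-G-F (log2 fold change 0.53, SE 0.166, edgeR FDR 0.0525; called in 11 of 16 fits without single libraries, with an FDR of up to 0.122), and Ptk2, the focal adhesion kinase, was higher by 0.46 (edgeR FDR 0.0351). Adgrb3 and Dock3 are genes known from neurons. Neuron markers were higher in the same libraries. Of these 12, all tested, 6 had an FDR below 0.1 and all 6 were higher, beside 14.8% of all genes tested with such an FDR in either direction, with summed means of 478 and 507 CPM in WT females and males and 621 and 648 CPM in APP-NL-G-F females and males. Map2 was the most abundant at 192 CPM, and none was at 0. Their part in these differences was not tested.

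Of 13 other integrin subunits tested of 15, none was called. Itgb2, the β subunit of the complement receptors and of CD11b, averaged 424 ± 25.1 and 383 ± 17.9 CPM (SD, n = 8 per genotype) for WT and APP-NL-G-F (log2 fold change -0.14, edgeR FDR 0.0381), and Itga5 averaged 19.5 ± 1.81 and 17.2 ± 1.22 CPM (log2 fold change -0.18, edgeR FDR 0.0848). Itgb2 was also the most abundant of this list at 362 TPM. Both were short of the fold threshold. Within females Itga5 had an edgeR FDR of 0.0879 (log2 fold change -0.26). Of 12 scramblases and flippases tested of 13, the enzymes that move phosphatidylserine across the membrane, none was called. Tmem30a, the flippase subunit CDC50A, was the most abundant at 82.7 TPM. Ano6, a scramblase, was higher by 0.15 (93.4 ± 5.16 and 104 ± 6.89 CPM, edgeR FDR 0.0380). The medians of the lists ran from -0.08 for the bridging proteins to 0.04 for the scramblases, beside -0.00 for all genes tested. Within females 2 of the 80 genes, Vtn and Adgrb3, were called, beside 7.15% of all genes tested. Within males 0 of the 80 were called, beside 0.252%, and none had an FDR below 0.1. There, 7 had an unadjusted edgeR p below 0.05, beside 2126 of the 18227 genes tested. No gene of the 5 lists had an FDR below 0.1 between the sexes or in the interaction. Apoh, Tulp1, Havcr1, Stab2, Itga2, Itgb6 and Xkr9 did not pass the filter on low counts.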

How the data were processed

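Microglial RNA of 16 libraries was prepared with a stranded SMART-Seq kit. Per the labels and the study's methods, the authors aligned reads with STAR to GRCm39 (mm39) with gencode vM32 and a human App sequence, and deposited whole-number counts per gene without normalisation. Which strand column was counted is not given in the sources used here. All 16 columns were mapped to samples by name, and 0 were left over. The annotation used here for positions and lengths was gencode vM39 on the same build.

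A gene was tested where 50% or more of the libraries had 5 or more counts, which left 18227 of 57010 genes, with 99.86% of the counts. Counts were scaled by TMM and tested with edgeR 4.0.16 in R 4.3.3 (glmQLFit, glmQLFTest), with sex as an additive term or with the 4 groups, and p-values were adjusted over all tested genes. limma 3.58.1 and DESeq2 1.42.0 were alternatives. A prior count of 2 was added for log2 CPM. Exact permutation tests were two-sided and exchanged genotype within sex, or sex within genotype, over 4900 splits, with a smallest p of 0.000408. Pair correlations used 100000 permutations within group. The fitting procedure was tested on simulated data, and the outcome is not reported here. A count of 0 allows up to 3 counts, or 0.169 to 0.346 CPM, and intervals for single libraries cover counting error only.

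The named genes were all 10 members, every gene of the 5 pathway lists with an FDR below 0.1, the most abundant gene of each list per length and the 3 genes most like each member. A gene that this rule names is not reported here. The members and lists were chosen with earlier results of these data known. Alternatives were other scalings, filters, tools, thresholds and blocks, and leaving out each library. The ratios, the canonical lengths, the correlations with other scaling and the values of markers, lists and correlations without single libraries were added after seeing the data.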

Additional observations from a re-analysis of the deposited data

Results flagged for a closer look

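In groups of 4 libraries, the gap between an extreme library and its nearest neighbour was set against the range of the group, and 3 of 44 groups had a share above Dixon's 95% critical value of 0.829, where chance gives about 1 in 20, or 2.2 of 44. Itgb5 in APP-NL-G-F female 3 was the lowest of its group with a share of 0.845. Mertk in APP-NL-G-F male 3 was the highest of its group with a share of 0.977. Adgrb1 in the same library was the lowest with a share of 0.860. In this library the summed microglial markers were at 23730 CPM and the summed neuron markers at 505 CPM, the highest and the lowest of the 4 APP-NL-G-F males. Their part in the values of both genes was not tested.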

How the results depend on the processing

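No member was called in any of the 5 comparisons under any alternative run. Of 1410 values of members under alternatives, 85 had the other sign, all with fold changes short of the threshold. The 1410 include alternatives that changed only the threshold, where a sign cannot change. With the replicate block 0 members were called and 3 genes in the interaction in place of 5, and the other counts stayed within 1.5 times. Replicate numbers were not taken as pairs (8 of 24 same-number pairs had r above 0.1, lowest -0.33, and 8 of 16 libraries correlated best with their own number). The median r was 0.03 for the same number and -0.03 for other numbers. The number of members with an exact permutation p below 0.05 for genotype went from 1 to 2 with library totals alone, and the number of correlated pairs from 12 to 2. Left-out libraries gave 6 to 22 pairs.

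The background counts moved more. Genes called over both sexes were 1574, 830 with at least 10 counts in every library and 2692 with the FDR alone, and 1101 to 2187 without single libraries. Within females they were 1304, and 2136 with no filter, 734 with the stricter filter, 833 at an FDR of 0.05, and 594 to 2110 without single libraries. Within males they were 46, and 268 with DESeq2, 84 with limma voom, 880 with no filter, 22 with the stricter filter, 141 with replicates 1 and 2 against 3 and 4 as a block, 8 at an FDR of 0.05, and 5 to 603 without single libraries (lowest without APP-NL-G-F male 2, highest without APP-NL-G-F male 3). In the interaction they were 5, and 3 with library totals or without ribosomal RNA and mitochondrial genes, 76 with DESeq2, 1 with limma voom, 470 with no filter, 1 with the stricter filter, 2 at an FDR of 0.05, and 1 to 43 without single libraries. Between the sexes they were 11, and 57 with no filter, 3 with the stricter filter, and 5 to 9 without single libraries. The cause of these shifts was not tested. Mfge8 had the fewest counts of the members, 181 to 420 per library, and Adgrb1, with 1448 to 2890, had the largest SE for genotype (0.107).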
